A study of Homo sapiens with 9 samples.

Results

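The genes described here are the UBE2 ubiquitin-conjugating enzymes, taken as every protein-coding gene whose symbol starts with UBE2 in the authors' deposited comparison tables. The rule found 34 genes among 58735 genes of the count table, and among 15554 protein-coding genes listed in either comparison table. Of these, 32 had enough counts to be tested, as part of 14975 tested genes. The other two were the read-through gene UBE2F-SCLY, with 0 to 2 counts per library, and UBE2Q2L, with at most 0.0544 CPM, counts scaled to a common library total (counts per 1e6). The cells were THP-1, an established human acute myeloid leukaemia line that carries the MLL-AF9 fusion. All 9 libraries came from cells that received a lentivirus made in 293T cells, were put under puromycin at 24 hours and were harvested at 48 hours. The control group carried a non-targeting shRNA, and the other groups carried shRNA-143 or shRNA-146, each a hairpin against NFATC2, with 3 libraries per group. All groups are thus transduced and selected cells of a single line, no untransduced cells are among them. The sources used here do not give the sequence of either hairpin.

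Ubiquitin is passed along a relay: an E1 enzyme activates it, an E2 enzyme carries it as a thioester on a cysteine, and an E3 ligase places it on a substrate. The E2 often sets which chain is built, and so whether the substrate goes to the proteasome or changes its binding partners. A few UBE2 proteins carry relatives of ubiquitin in its place: UBE2M and UBE2F carry NEDD8 to cullins, and UBE2L6 carries the interferon-induced modifier ISG15. THP-1 is a monocytic line, and its cells divide in culture, which draws on the E2 enzymes of the anaphase-promoting complex, UBE2C and UBE2S.

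Promoter windows are shown for 3 members that results below turn on, UBE2F and UBE2L6, which were low together under shRNA-143, and UBE2Q2, which was high under both hairpins. Each is the 250 bases before a RefSeq start site on GRCh38.p14, read 5′ to 3′ on the gene's own strand. Capitals mark a match to any of 3 motifs searched on both strands: GGAAA, the core of NFAT sites, TTTGAA, the cell cycle genes homology region, and CCAAT. The UBE2L6 window holds no match to them.
UBE2F, chr2:237966764-237967013, plus strand: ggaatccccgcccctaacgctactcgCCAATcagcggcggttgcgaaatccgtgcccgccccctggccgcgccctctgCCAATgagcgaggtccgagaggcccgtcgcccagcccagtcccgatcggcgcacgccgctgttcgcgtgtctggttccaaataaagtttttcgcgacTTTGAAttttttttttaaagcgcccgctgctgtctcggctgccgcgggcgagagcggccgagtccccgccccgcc
UBE2L6, chr11:57567936-57568185, minus strand: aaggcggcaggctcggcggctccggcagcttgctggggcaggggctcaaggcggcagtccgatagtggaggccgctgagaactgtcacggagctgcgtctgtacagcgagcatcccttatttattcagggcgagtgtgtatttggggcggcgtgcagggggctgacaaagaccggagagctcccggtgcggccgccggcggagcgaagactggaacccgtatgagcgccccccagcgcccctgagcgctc
UBE2Q2, chr15:75843197-75843446, plus strand: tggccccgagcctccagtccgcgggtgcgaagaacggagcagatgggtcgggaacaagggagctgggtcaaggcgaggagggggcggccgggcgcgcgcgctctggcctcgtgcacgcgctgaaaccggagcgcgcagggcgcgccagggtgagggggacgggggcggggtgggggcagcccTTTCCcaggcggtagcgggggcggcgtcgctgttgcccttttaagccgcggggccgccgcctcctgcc
The UBE2F window held CCAAT at 224 to 220 and at 172 to 168 bases before the start, and TTTGAA at 75 to 70 bases before it. In the UBE2Q2 window, the match to the NFAT core lay on the opposite strand at 68 to 64 bases before the start, so its capitals read as the complement. The NFAT core was in 55.7% of all 34943 windows of this length, TTTGAA in 13.4% and CCAAT in 32%. Among 38 windows of the 26 members that the table holds, the shares were 44.7%, 7.89% and 28.9%. These windows are not independent. Those of UBE2F and UBE2F-SCLY overlap, so the same matches count in both, and some members, such as UBE2D3, have several windows. A motif of this length may overlap another, a match is a match of letters only, and GENCODE 29 has transcripts of these genes that start elsewhere than the RefSeq start. The RefSeq table has no entry for UBE2B.

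Total counts ran from 40047459 to 44669709 per library, and UBE2 genes held 0.339% to 0.436% of them. NFATC2, the transcription factor that the hairpins target, had 12.7, 27.6 and 27.4 CPM in control replicates 1 to 3, 1.49, 7.40 and 6.95 CPM with shRNA-143, and 2.59, 6.71 and 9.43 CPM with shRNA-146. No shRNA library overlapped the controls, and NFATC2 fell by 2.27 ± 0.24 (SE) with shRNA-143 and by 1.96 ± 0.23 with shRNA-146 on the log2 scale (adjusted p = 0.00168 and 0.00435, edgeR with the replicate number as a block). Without the block the NFATC2 values were -2.09 ± 0.64 and -1.85 ± 0.63, and neither passed (adjusted p = 0.497 and 0.464). The 10 myeloid markers of the line summed to 800.0 to 1088 CPM in every library. Markers of other cell types summed to 3.50 to 10.8 CPM for 4 B cell genes, 2.21 to 4.87 for 4 epithelial genes, 0.820 to 3.03 for 3 fibroblast genes, 0.415 to 0.754 for 4 T cell genes and at most 0.0627 for 5 erythroid genes. The B cell sum was 5.68 ± 2.0 CPM (SD, n = 3) in controls, 8.29 ± 3.23 with shRNA-143 and 8.13 ± 3.96 with shRNA-146, and the epithelial sum was 4.43 ± 0.465, 3.52 ± 0.263 and 2.49 ± 0.267. Nearly all of the epithelial sum was KRT8, at 4.33, 3.41 and 2.40 CPM in the same order. PAX5 held 2.87, 5.50 and 5.51 CPM of the B cell sum. It had 0.754 to 1.33 CPM in replicate 1 libraries and 2.72 to 8.29 in the others. Among the myeloid markers, CD68 was near the floor, at 4 to 25 counts. The part of these markers in the results was not tested. Libraries with the same replicate number deviated alike from their group means, so values below come from a fit with that number as a block, and the fit without it is given beside the calls of UBE2 genes and of genes named from other lists. In the edgeR fit without the block, no UBE2 gene passed an adjusted p of 0.05 in any comparison. CPM values are scaled by TMM, a method that sets libraries on a common scale, and fold changes carry the SE of the fit with n = 3 libraries per group. The series calls the replicates biological but does not tie them to separate cultures, so the p-values cover spread among these libraries, part of which can be technical. In bulk RNA, fewer cells of a type and less RNA per cell cannot be told apart.

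**Figure D1:**
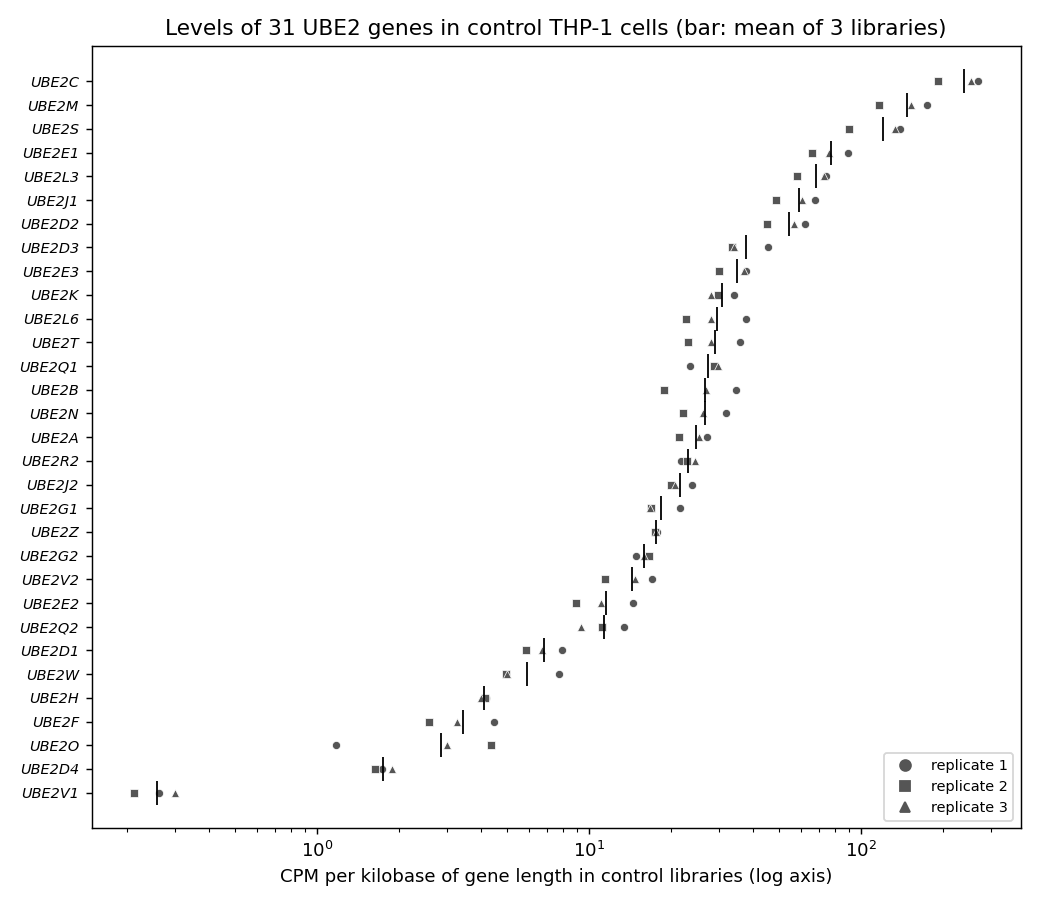
Level of 31 tested UBE2 genes in the 3 control libraries, in CPM per kilobase of gene length on a log axis, with a symbol per replicate and a bar at the mean. UBE2C stands highest at a mean of 238, and UBE2V1 lowest at 0.258.

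In control cells, the genes with the highest level per kilobase of gene length were UBE2C, UBE2M and UBE2S. Gene length here is the total of all annotated exon bases and not that of the expressed transcript, so the order depends on the annotation. Before division by length UBE2D3 was highest, at 379 ± 67.4 CPM against 306 ± 53.4 for UBE2C. Its 10069 bases bring it to 37.6 per kilobase, while UBE2C has 1286 bases. UBE2C, which starts chains for the anaphase-promoting complex, had 238 ± 41.5 CPM per kilobase (SD, n = 3), UBE2M, the main NEDD8 carrier, 147 ± 29.4, and UBE2S, which extends the K11-linked chains that UBE2C starts, 121 ± 26.5. The means of UBE2M and UBE2S differed by about the spread between replicates, but UBE2M was the higher in each control library. This difference was not tested. UBE2E1 and UBE2L3 came next at 77.2 ± 11.8 and 68.3 ± 8.92, also with UBE2E1 the higher in each control library and no test. Of 31 tested members, 19 lay between 10 and 60 CPM per kilobase, as the plot of control levels shows. UBE2F, the other NEDD8 carrier, was far below UBE2M at 3.43 ± 0.951, and UBE2W, which attaches ubiquitin to a protein's N-terminus, stood at 5.89 ± 1.60. The lowest tested gene was UBE2V1, a catalytically inactive partner of UBE2N, at 0.258 ± 0.0439. It had 43 to 53 counts per control library, and 38 to 66 over all 9 libraries. Of its exon bases 42.9% are shared with the read-through gene TMEM189-UBE2V1, which has 0 counts in every library. The sources used here do not say how reads in shared exons were counted, so the level of UBE2V1 is uncertain.

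The E2 enzymes of ubiquitin-like modifiers held the largest fall among the tested members and the largest difference between the hairpins. UBE2F (ENSG00000184182, chromosome 2, 237966827 to 238042782, plus strand, hg38) pairs with the RING protein RBX2 to attach NEDD8 to CUL5. Its CPM was 18.9, 10.9 and 13.9 in control replicates 1 to 3, 5.59, 2.86 and 2.45 with shRNA-143, and 32.1, 9.0 and 8.76 with shRNA-146. All shRNA-143 libraries lay below all controls, while the shRNA-146 libraries lay on both sides of them, with replicate 1 the highest of all 9 libraries. UBE2F fell by 2.08 ± 0.26 on the log2 scale with shRNA-143, a 4.24-fold lower level (adjusted p = 0.00287, edgeR with the block). Without the block the value was -2.0 ± 0.56 with an adjusted p of 0.438, and other unblocked fits of all 9 libraries gave 0.0304 (DESeq2) to 0.715 (edgeR, no filter). In the 9 unblocked edgeR fits that left out a library, UBE2F did not pass, with values of -2.45 to -1.77 and adjusted p-values of 0.0843 to 1. Within replicate numbers, the shRNA-143 value was -1.76, -1.93 and -2.5 log2 units from the control of the same number. With shRNA-146 the value was -0.05 ± 0.24, and its 95% interval ran from -0.72 to 0.62.

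UBE2F counts can be touched by other genes. It shares 16.2% of its exon bases with UBE2F-SCLY, which had 0 to 2 counts. Its processed pseudogenes are named here after their values were seen. UBE2FP1 is 87.4% identical over 453 aligned bases and had 20, 30 and 30 counts in control replicates 1 to 3, 7, 14 and 15 with shRNA-143, and 37, 45 and 39 with shRNA-146. These are 2.85% to 13.4% of the UBE2F counts of the same library. This pseudogene was thus lowest in the same group as UBE2F and highest under shRNA-146. A further pseudogene, UBE2FP3, is 71.8% identical over 564 aligned bases and went another way, with 9, 13 and 16 counts in controls, 6, 10 and 5 with shRNA-143, and 0, 7 and 8 with shRNA-146.

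UBE2L6 (ENSG00000156587, chromosome 11, 57551656 to 57568284, minus strand), the ISG15 carrier, had 82.9, 49.7 and 61.7 CPM in control replicates 1 to 3, 39.8, 23.5 and 22.3 with shRNA-143, and 81.2, 48.4 and 46.8 with shRNA-146. The shRNA-143 libraries again lay below every control, and the shRNA-146 libraries overlapped the controls, at -0.03, -0.04 and -0.40 log2 units from the control of the same number. UBE2L6 fell by 1.20 ± 0.14 with shRNA-143 (adjusted p = 0.00204 with the block, 0.437 without it), with a value of -0.16 ± 0.14 under shRNA-146 (95% interval -0.53 to 0.22). No other gene's exons overlap it.

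UBE2M (ENSG00000130725, chromosome 19, 58555712 to 58558960, minus strand) had 318, 212 and 280 CPM in controls, 299, 191 and 218 with shRNA-143, and 192, 214 and 215 with shRNA-146. Its values of -0.20 ± 0.16 and -0.35 ± 0.16 did not pass, with intervals from -0.65 to 0.25 and from -0.80 to 0.10. The NEDD8 carriers therefore had different values under shRNA-143, -2.08 for UBE2F and -0.20 for UBE2M, a difference between genes that was not itself tested.

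**Figure D2:**
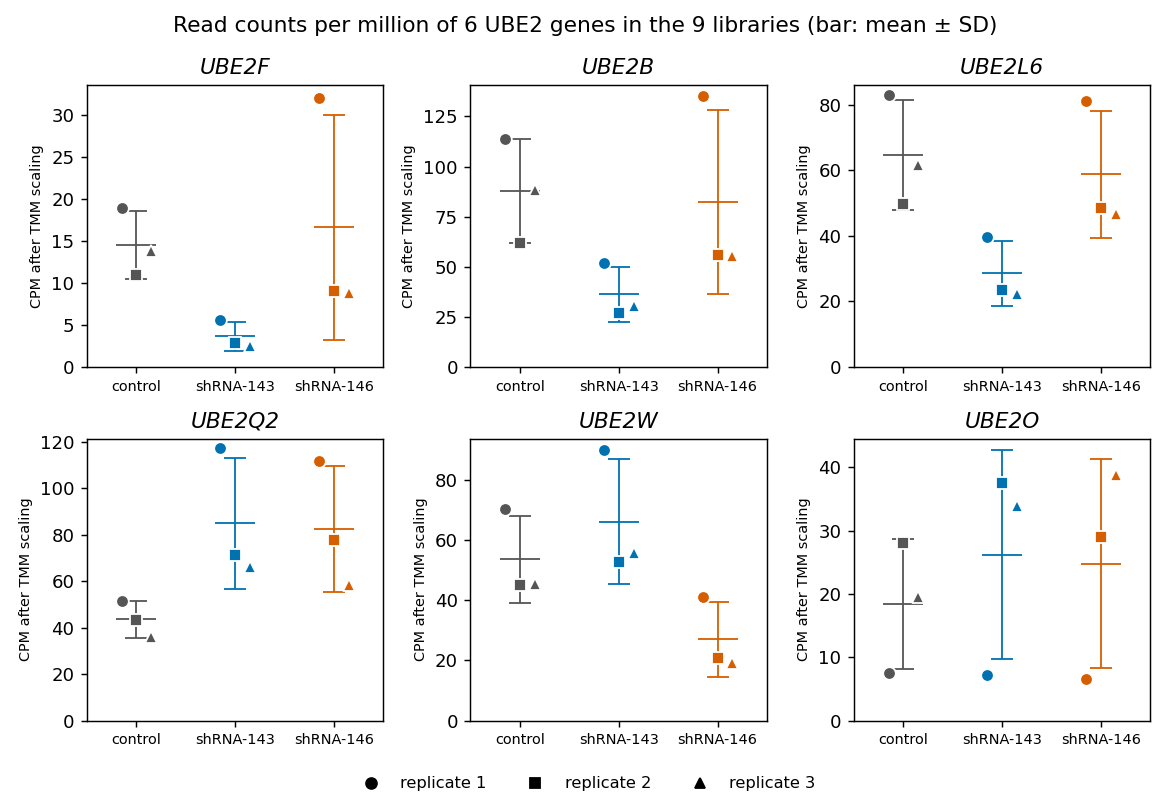
CPM after TMM scaling of 6 UBE2 genes in each of the 9 libraries, by group, with a symbol per replicate number and a bar for the mean ± SD of 3 libraries. UBE2F, UBE2B and UBE2L6 are low in all shRNA-143 libraries, UBE2W in all shRNA-146 libraries, UBE2Q2 is high under both hairpins, and UBE2O is low in replicate 1 of every group.

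Of the 3 E2 enzymes of DNA repair and chromatin, UBE2B fell. UBE2B (ENSG00000119048, chromosome 5, 134371179 to 134391992, plus strand) is a RAD6 enzyme, which works with RAD18 on PCNA and with RNF20 and RNF40 on histone H2B. It had 114, 61.7 and 88.5 CPM in control replicates 1 to 3, 51.9, 26.7 and 30.2 with shRNA-143, and 135, 56.0 and 55.4 with shRNA-146. All shRNA-143 libraries lay below the controls, and the shRNA-146 libraries lay on both sides of the control range. UBE2B fell by 1.31 ± 0.17 with shRNA-143 (adjusted p = 0.00385 with the block, 0.548 without it), a 2.48-fold lower level, against -0.19 ± 0.17 with shRNA-146 (95% interval -0.65 to 0.27). UBE2A, the other RAD6 enzyme, had -0.13 ± 0.15 and 0.02 ± 0.15. UBE2T, the E2 of the Fanconi anaemia pathway, had -0.35 ± 0.16 and -0.13 ± 0.16, and neither passed. The calls of UBE2F, UBE2L6 and UBE2B under shRNA-143 held in all 9 blocked fits that left out a single library, with adjusted p-values of at most 0.0395 (edgeR).

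Among 9 E2 enzymes that start chains or serve many ligases (UBE2D1 to UBE2D4, UBE2E1 to UBE2E3, UBE2L3 and UBE2W), only UBE2W passed a group comparison in the blocked fit. UBE2W (ENSG00000104343, chromosome 8, 73780097 to 73878910, minus strand) had 70.3, 44.9 and 45.4 CPM in control replicates 1 to 3, 89.8, 52.6 and 55.5 with shRNA-143, and 41.1, 20.6 and 19.0 with shRNA-146. Every shRNA-146 library lay below every control, and every shRNA-143 library lay above the control of its own number. UBE2W fell by 1.05 ± 0.14 with shRNA-146, a 2.06-fold lower level (adjusted p = 0.00566 with the block, 0.484 without it). Without control replicate 2 the blocked value was -1.01 with an adjusted p of 0.0677 by edgeR. Under shRNA-143 the value was 0.29 ± 0.14 (95% interval -0.09 to 0.67), which did not pass. The gene AC022826.2 on the same strand shares 5.21% of the exon bases of UBE2W and had 0 counts in every library. The other 8 genes of the class ranged from -0.37 to 0.25 with shRNA-143 and from -0.33 to 0.24 with shRNA-146.

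The only member that rose was UBE2Q2, and it rose under both hairpins. UBE2Q2 (ENSG00000140367, chromosome 15, 75843285 to 75901078, plus strand) is a little-studied E2 with a long N-terminal extension. It had 51.5, 43.1 and 35.8 CPM in control replicates 1 to 3, 117, 71.3 and 66.2 with shRNA-143, and 112, 77.7 and 58.1 with shRNA-146. All 6 shRNA libraries lay above all controls, and within each group replicate 1 was the highest. UBE2Q2 rose by 0.93 ± 0.14 with shRNA-143 (adjusted p = 0.00722 with the block, 0.527 without it) and by 0.89 ± 0.14 with shRNA-146 (0.00881 and 0.451), so its level was 1.91 and 1.85 times that of control. The values for the hairpins share the control libraries. Their difference was -0.05 ± 0.14 with a 95% interval from -0.43 to 0.33. Control replicates 1 and 2 and shRNA-143 replicate 3 decided these calls: the adjusted p with shRNA-143 was 0.0624 without control replicate 2 and 0.0683 without shRNA-143 replicate 3, and with shRNA-146 it was 0.0522 without control replicate 1 and 0.0727 without control replicate 2 (edgeR, blocked). Its near copy UBE2Q2L is at or near 0, and no exon of another gene overlaps UBE2Q2. The other 4 large or divergent E2 enzymes, UBE2H, UBE2O, UBE2Q1 and UBE2Z, did not pass.

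No call was made in 3 further classes. UBE2C (ENSG00000175063, chromosome 20, 45812576 to 45816957, plus strand) had 346, 245 and 326 CPM in controls, 315, 199 and 208 with shRNA-143, and 268, 235 and 222 with shRNA-146, and its values were -0.36 ± 0.14 and -0.33 ± 0.14. UBE2S (ENSG00000108106, chromosome 19, 55399745 to 55407777, minus strand) had 388, 252 and 369 CPM in controls, 286, 188 and 211 with shRNA-143, and 268, 246 and 283 with shRNA-146. Both genes overlapped the controls under each hairpin. UBE2S came nearest to a call, with -0.56 ± 0.14 under shRNA-143 (adjusted p = 0.0659 by edgeR with the block, and 0.0219 by DESeq2 with the block, over a range up to 0.109 in the other blocked fits of all libraries). The 6 enzymes of K48-linked chains and of degradation from the endoplasmic reticulum (UBE2G1, UBE2G2, UBE2J1, UBE2J2, UBE2K and UBE2R2) ranged from -0.26 to 0.18 with shRNA-143 and from -0.24 to 0.12 with shRNA-146. UBE2N, which builds K63-linked chains, and its partners UBE2V1 and UBE2V2 ranged from -0.42 to -0.13 and from -0.29 to -0.11. For UBE2N, 39.5% of exon bases are shared with NUDT4 on the opposite strand.

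**Figure D3:**
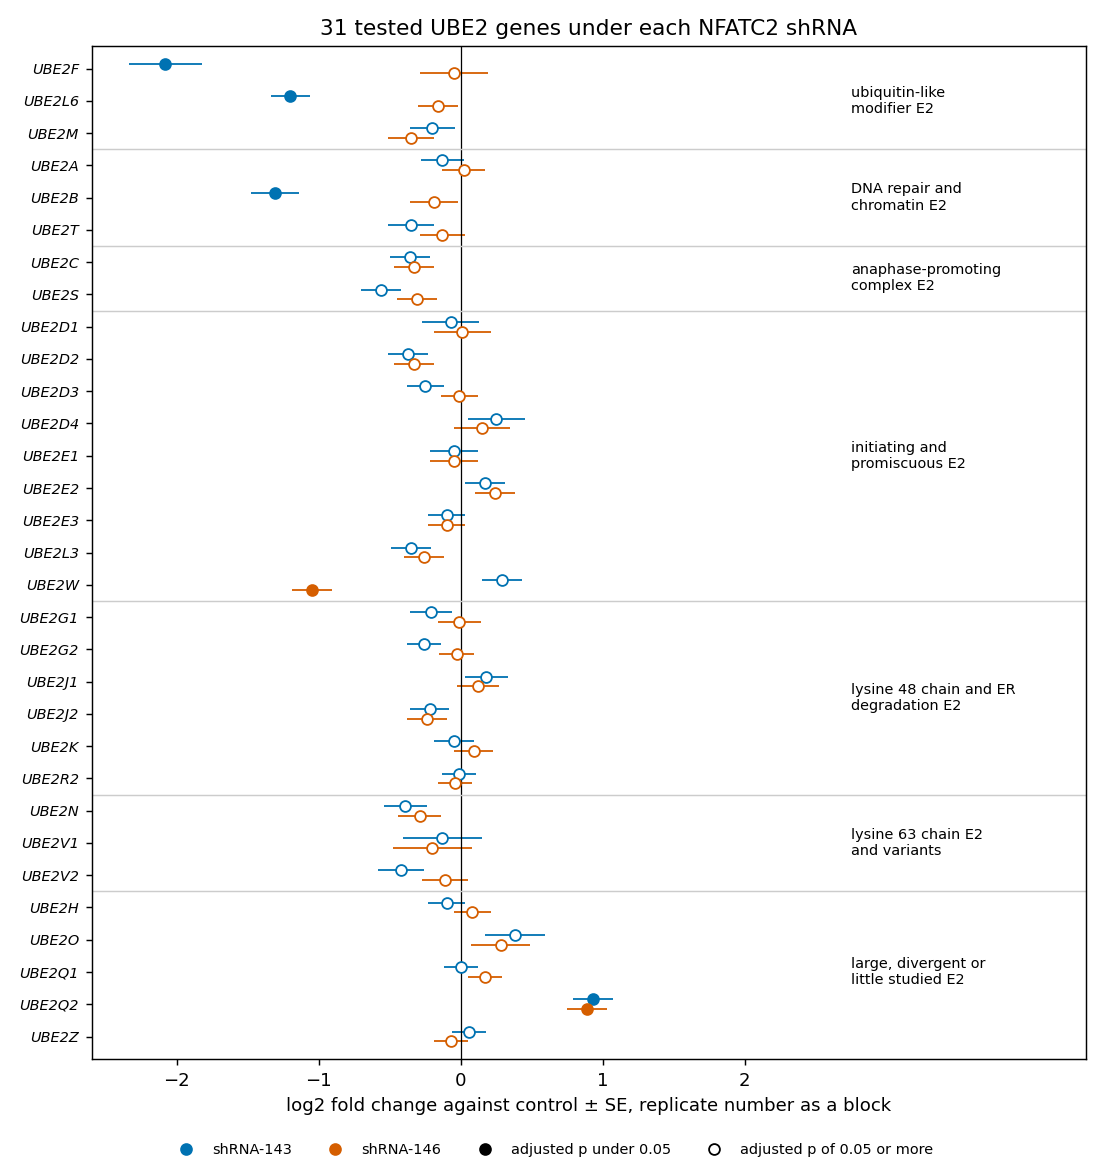
Log2 fold change ± SE of 31 tested UBE2 genes under shRNA-143 and shRNA-146 against control, with the replicate number as a block, grouped by role. Filled points have an adjusted p under 0.05. UBE2F, UBE2L6 and UBE2B stand apart to the left for shRNA-143, UBE2W for shRNA-146, and UBE2Q2 to the right for both.

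Counted over all members, shRNA-143 gave 0 calls without the block (5 members at an unadjusted p under 0.05), where 0.0467% of all genes were called, and 4 of 32 with it (12.5%), where 3.17% of all genes were called. For shRNA-146 the counts were 0 (2 members at an unadjusted p under 0.05; background 0.0334%) and 2 of 32 (6.25%; background 4.42%). The mean of both hairpins against control gave 0 (3 members at an unadjusted p under 0.05, background 0.0334%) and 4 of 32 (12.5%, background 5.74%), with UBE2Q2 higher and UBE2L6, UBE2B and UBE2F lower. Of these, UBE2Q2 alone was called under each hairpin. UBE2L6, UBE2B and UBE2F were called under shRNA-143 and not under shRNA-146, and they differed between the hairpins by the direct test below. The median log2 value of the tested members with the block was -0.16 for shRNA-143 and -0.06 for shRNA-146, beside 0.00 and 0.02 over all tested genes. By DESeq2 without the block, UBE2F alone passed under shRNA-143 (adjusted p = 0.0304) and no member under shRNA-146. In the authors' deposited table, UBE2F and UBE2B had adjusted p-values of 0.00018 and 0.0453 under shRNA-143, and UBE2L6 0.0510. There UBE2Q2 did not pass, at 0.123 with shRNA-143 and 0.313 with shRNA-146, nor did UBE2W with shRNA-146, at 0.428. No member passed under shRNA-146 in that table. Leaving out shRNA-146 replicate 1 raised the blocked count under shRNA-143 to 7, with UBE2N, UBE2S and UBE2V2 added, all lower. That fit called 2099 of 15333 genes, against 474 of 14975 with all libraries. Leaving out control replicate 2 lowered the count under shRNA-146 to 0 and that of the mean of both hairpins to 0. Over all genes, 27 and 14 of 15355 were then called. The count for the mean was also 1 without control replicate 3 (38 of 15355 genes) and 2 without shRNA-143 replicate 3 (216 of 15310). It was 11 without shRNA-146 replicate 1 (3075 of 15333). The count under shRNA-146 was 1 without control replicate 1 (140 of 15364). The counts of members thus moved with those over all genes.

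CPM values that did not overlap the controls gave a similar view. With shRNA-143, 2 members were higher in all 3 libraries, UBE2Q2 and UBE2Z, and 4 were lower, UBE2F, UBE2L6, UBE2B and UBE2G2, while 7.09% and 8.11% of all genes were. With shRNA-146, UBE2Q2 was higher, and UBE2W, UBE2J2 and UBE2Z were lower, beside 7.25% and 7.46% of all genes. These counts are near the background. A lack of overlap could rest on small differences: UBE2Z had 100.3 to 102 CPM in controls, 104 to 109.7 with shRNA-143 and 93.4 to 100.1 with shRNA-146.

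Compared directly, shRNA-146 libraries had more UBE2F (2.04 ± 0.25 log2 units, adjusted p = 0.00399), UBE2L6 (1.05 ± 0.14, 0.00490) and UBE2B (1.12 ± 0.17, 0.00953) and less UBE2W (-1.34 ± 0.14, 0.00128) than shRNA-143 libraries, by edgeR with the block. These are 4 of 32 members (12.5%), where 1.2% of all genes were called. Without the block no member passed by edgeR (4 at an unadjusted p under 0.05), where 0.0467% of all genes were called, and by DESeq2 without the block UBE2F passed alone (adjusted p = 0.0129, against 0.539 by edgeR). For each of these genes the CPM values of the hairpins did not overlap. Counting all members, 4 were higher in every shRNA-146 library (UBE2F, UBE2L6, UBE2B and UBE2G2) and 2 were lower (UBE2W and UBE2Z), beside 4.49% and 3.69% of all genes. Only UBE2W passed in all 9 blocked fits that left out a library, with adjusted p-values up to 0.0165 (edgeR). UBE2F missed the threshold without shRNA-143 replicate 1 (0.0569), UBE2L6 without shRNA-143 replicate 2 (0.0533) or 3 (0.0558), and UBE2B without any of the shRNA-143 libraries (0.0622 to 0.0876) or shRNA-146 replicate 2 (0.0517). In those fits 2 or 3 of the 4 calls stood, and 31 to 61 genes were called over all genes. NFATC2 itself did not differ past the threshold between the hairpins, at 0.31 ± 0.23 (95% interval -0.34 to 0.96).

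The replicate number moved more members than either hairpin did. With the group in the model, 21 of 32 members (65.6%) differed by replicate number, where 42.1% of all genes did (edgeR, F test over the 3 numbers). Of these, 19 were higher in replicate 1 than in the mean of replicates 2 and 3, and 2 were lower. Over all genes the split was 2963 higher (19.8%) and 3339 lower (22.3%). The median difference was 0.49 log2 units over the members and 0.01 over all genes. The higher members were 7 of 9 in the class that starts chains, 3 of 3 in DNA repair and chromatin, 3 of 4 in ubiquitin-like modifiers, 3 of 6 and 2 of 3 in the K48 and K63 classes, and UBE2Q2 among the large E2 enzymes. UBE2C and UBE2S of the anaphase-promoting complex did not pass, but both did, as higher, with RLE scaling and without shRNA-146 replicate 1 or 3. No difference between classes was tested.

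**Figure D4:**
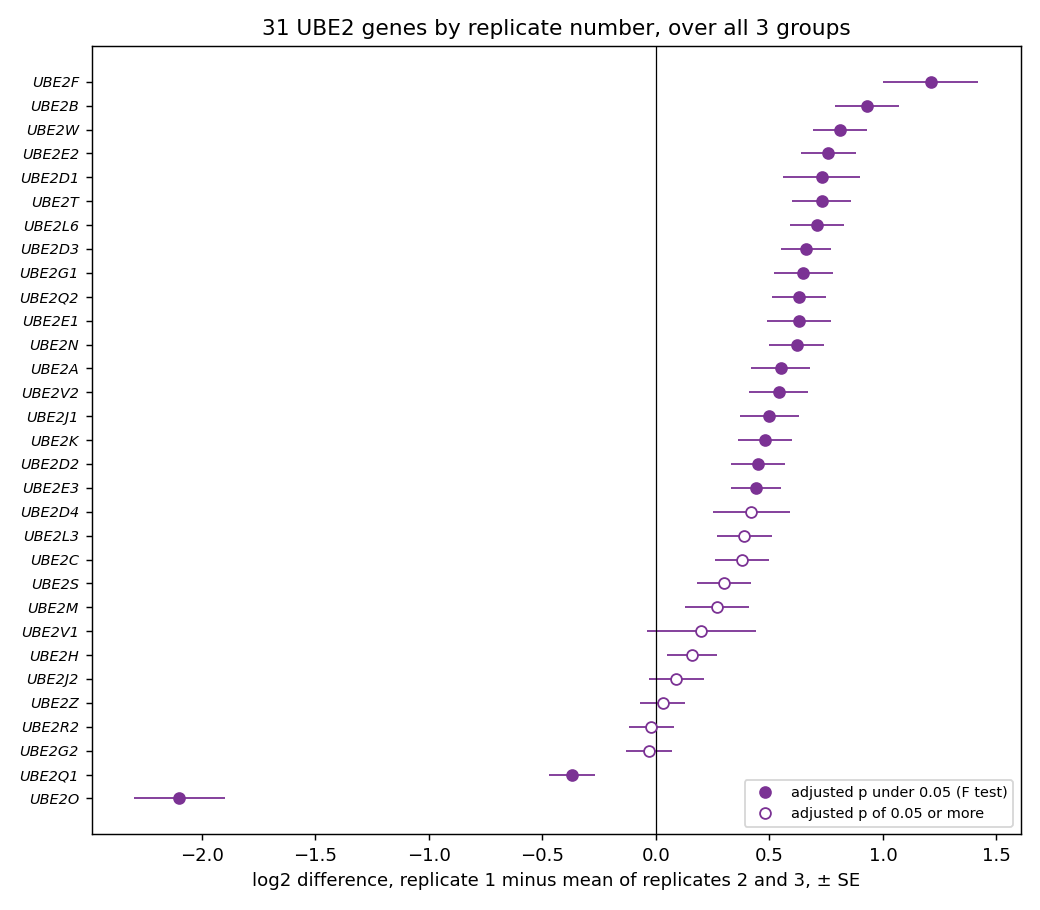
Log2 difference between replicate 1 and the mean of replicates 2 and 3 for 31 tested UBE2 genes, ± SE, from the fit with group and replicate number. Filled points have an adjusted p under 0.05 in the F test of the replicate number. UBE2O lies alone at the left at -2.10, and 27 of the 31 genes lie above 0.

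The 4 members with the smallest p were UBE2O, UBE2W, UBE2B and UBE2E2. Differences are replicate 1 minus the mean of replicates 2 and 3. The adjusted p-values beside them are from the F test over the 3 numbers, not from a test of that difference. UBE2O (ENSG00000175931, chromosome 17, 76389451 to 76453206, minus strand), a large enzyme that combines E2 and E3 activity and is known for clearing ribosomal proteins in reticulocytes, had 7.57, 28.1 and 19.5 CPM in control replicates 1 to 3, 7.26, 37.5 and 33.9 with shRNA-143, and 6.52, 29.1 and 38.7 with shRNA-146. Replicate 1 was the lowest library of each group, the difference was -2.10 ± 0.20 log2 units (adjusted p = 0.000269), and UBE2O did not pass in any group comparison. UBE2E2 (ENSG00000182247, chromosome 3, 23203020 to 23591793, plus strand), an E2 of the initiating class, had 47.6, 29.2 and 36.3 CPM in controls, 61.7, 31.8 and 37.1 with shRNA-143, and 66.0, 36.2 and 34.7 with shRNA-146, so replicate 1 was the highest of each group (0.76 ± 0.12, adjusted p = 0.00188). UBE2W and UBE2B were higher in replicate 1 by 0.81 ± 0.12 and 0.93 ± 0.14 (adjusted p = 0.00132 and 0.00154). UBE2F had the largest positive difference, 1.21 ± 0.21 (0.00307).

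Over all 3 groups, 11 members had every replicate 1 value above every other library and 2, UBE2O and UBE2Q1, had it below, beside 14.3% and 20.3% of all genes. Scaling by library size in place of TMM moved the median of all genes by replicate number to -0.22, and that of the members to 0.26, with 10 members higher and 2 lower. That fit called 5588 of 14975 genes. The count was 13 without control replicate 2 (4365 of 15355 genes) or without shRNA-143 replicate 1 (3984 of 15360). It was 14 without shRNA-143 replicate 2 (4566 of 15306). UBE2O, UBE2W, UBE2B and UBE2E2 passed in each of the 9 fits that left out a library. The sources used here do not say what the replicate number stands for, and its part in the group comparisons was not tested beyond the block.

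Genes of the rest of the relay were taken from lists chosen for their roles. Counts of called genes are from edgeR with the block, where 3.17% of all genes were called with shRNA-143 and 4.42% with shRNA-146. Without the block no gene of these lists passed by edgeR in any group comparison, and that adjusted p is given second beside each named call. Of 10 E1 enzymes, 1 rose with shRNA-146 and none passed with shRNA-143: UBA7, the E1 of ISG15, at 0.61 ± 0.15 (adjusted p = 0.0492 with the block and 0.426 without it). UBA7 had 16.3 to 22.2 CPM in controls, 29.7 to 29.8 with shRNA-143 and 28.8 to 32.4 with shRNA-146. Its libraries of both hairpins thus lay above every control. Of 8 E2 enzymes and variants with other names, 1 fell with shRNA-146: UFC1, the carrier of UFM1, at -0.85 ± 0.14 (0.0103 and 0.470). Among 15 ubiquitin and ubiquitin-like proteins, 1 fell with shRNA-143: MAP1LC3B, an autophagosome protein, at -0.72 ± 0.15 (0.0336 and 0.739). In the ISG15 system, 2 of 6 rose with shRNA-146, UBA7 and the ligase HERC5 (0.62 ± 0.16, adjusted p = 0.0484 and 0.435), while ISG15 itself had -0.57 ± 0.20 and -0.45 ± 0.20 under the hairpins and did not pass. HERC5 had 9.24 to 10.6 CPM in controls, 11.9 to 15.6 with shRNA-143 and 13.6 to 16.7 with shRNA-146. It too lay above every control under both hairpins.

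NEDD8 acts on cullins, and 27 genes of neddylation and of the cullin-RING core were tested. CUL4A, the scaffold of a cullin-RING ligase, was the only one to pass against control, and it fell by 1.21 ± 0.13 with shRNA-143 (adjusted p = 0.00191 with the block and 0.0566 without it, edgeR). Its CPM was 109.6, 104 and 104.5 in control replicates 1 to 3, 46.6, 45.5 and 45.6 with shRNA-143, and 123, 97.3 and 91.5 with shRNA-146. The shRNA-143 libraries were all below the controls, and the shRNA-146 libraries spanned them. Between the hairpins, 2 of the 27 were higher with shRNA-146, CUL4A (1.17 ± 0.13, adjusted p = 0.00217 with the block and 0.0814 without it) and DCUN1D3, a NEDD8 ligase cofactor (1.02, 0.0449 and 0.934), where 1.2% of all genes were called with the block.

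For degradation from the endoplasmic reticulum, 1 of 14 genes fell with shRNA-146: SVIP, an inhibitor of that pathway, at -1.68 ± 0.20 (adjusted p = 0.00456 with the block and 0.176 without it, edgeR), with -0.29 ± 0.20 under shRNA-143. Of 15 ligases of K63-linked and linear chains and of DNA damage, 1 rose with shRNA-146: BIRC3, at 2.16 ± 0.48 (0.0354 and 0.230), from 0.109 to 0.143 CPM in controls to 0.376 to 0.939 CPM. BIRC3 is near the floor, with 4 to 6 counts in controls, 15 to 18 with shRNA-143 and 18 to 37 with shRNA-146. Its shRNA-143 libraries, at 0.350 to 0.385 CPM, also lay above every control. None of 16 genes of the anaphase-promoting complex passed with either hairpin by edgeR or DESeq2 with the block, with 0 and 5 of them at an unadjusted p under 0.05 by edgeR. None of 13 SUMO ligases and proteases passed by edgeR, with 4 and 1 at an unadjusted p under 0.05, while DESeq2 with the block called 1 higher and 1 lower with shRNA-143. Among 20 mitotic genes, 2 fell with shRNA-143, CDK1 (-0.95, adjusted p = 0.00989 and 0.527) and BIRC5 (-0.69 ± 0.14, 0.0280 and 0.710), and 1 fell with shRNA-146, AURKA (-0.53 ± 0.12, 0.0344 and 0.426). The shRNA-143 libraries of AURKA, at 114 to 130 CPM, also lay below the controls, at 135 to 163. The counts of called genes, of 0 to 2 in lists of 6 to 27, are too small to place above or below the shares over all genes.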

How the data were processed

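RNA-seq of 9 THP-1 libraries was analysed, 3 per group. The authors deposited raw counts per gene, with no replicates pooled, and a comparison table per hairpin, which gave symbols, gene lengths, biotypes and the authors' log2 fold changes and p-values. The build hg38 and the tools STAR 2.5, featureCounts, fastp and DESeq2 are listed, without roles, in the submitters' processing notes. The sources used here do not say whether counting used strand or how shared exons were handled. All 58735 gene identifiers are in GENCODE release 29, and every entry names a gene. The FPKM and normalized signal columns that the authors deposited were only compared with the counts.

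Genes kept by filterByExpr (14975) entered edgeR 4.0.16 (TMM, glmQLFit, robust, and glmQLFTest; R 4.3.3) in a single fit of 3 group means over 9 libraries, with 6 residual degrees of freedom, or 4 with the replicate number as a block. Adjusted p-values are Benjamini-Hochberg values over every tested gene, with a threshold of 0.05. SE is the log2 fold change divided by the root of its F statistic. Intervals are at 95% and use a t distribution with the residual degrees of freedom, 4 with the block. The edgeR p-values also draw on spread shared over genes, so an interval can be wider than its p-value implies. Checks on simulated counts preceded the tests. Alternatives used DESeq2 1.42.0, limma 3.58.1, other scalings, no filter, a gene length correction and each library left out. Sequences were compared with blastn 2.17.0.

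Same-numbered libraries of different groups had deviations from the group means that correlated at 0.252 to 0.758 in all 9 pairs, against -0.678 to 0.535 in 18 pairs of different number, so the numbers, which come from the titles, were taken as pairs. In 7 of 9 libraries the best match in both other groups had the same number.

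The UBE2 genes and all lists were chosen with earlier results of these data known. Full values are given for members with an adjusted p under 0.05 in any group comparison with or without the block, the 3 with the smallest blocked p in each hairpin comparison, the 3 highest per length in controls, and the 4 with the smallest p by replicate number. Other genes come from the lists, up to 3 a list by the blocked p of the mean of both hairpins. DCUN1D3, CDK1, UBE2FP1, UBE2FP3 and the markers KRT8, PAX5 and CD68 were named after their values were seen. The values of 1 tested member are not reported here.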

Additional observations from a re-analysis of the deposited data

Results flagged for a closer look

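In 4 UBE2 genes the effects of the hairpins differed by a direct test of shRNA-146 against shRNA-143 with the replicate number as a block (edgeR, adjusted over all genes, 3 libraries per group). UBE2F was higher with shRNA-146 by 2.04 log2 units, UBE2B by 1.12 and UBE2L6 by 1.05, and UBE2W was lower, at -1.34. In each gene the 3 libraries of a hairpin lay on 1 side of the 3 of the other. Without the block none of the 4 passed by edgeR. NFATC2 was lower in every library of both hairpins than in every control. No sample was tested as standing apart within a group, since groups of 3 are too small.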

How the results depend on the processing

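Without the block, each of the 4 group comparisons gave 0 called UBE2 genes, also with RLE scaling, library size scaling, no filter and limma-voom, and in each fit that left out a library (0 to 0). DESeq2 gave 1 under shRNA-143 and 1 between the hairpins, where 151 and 89 of 14975 genes were called. With the replicate block, the counts were 4 for shRNA-143, 2 for shRNA-146, 4 for the mean of both and 4 between the hairpins. Over all genes they were 474, 662, 859 and 179. With the block and a gene length correction they were 4, 2, 5 and 4 (all genes 415, 491, 636 and 204). With library size scaling and the block they were 4, 2, 4 and 4 (414, 835, 858 and 186). With DESeq2 and the block they were 5, 2, 5 and 4 (1001, 1400, 1642 and 374). Leaving out a library with the block gave 3 to 7, 0 to 3, 0 to 11 and 2 to 4 in that order. Those fits called 55 to 2099, 27 to 1745, 14 to 3075 and 31 to 344 genes over all. By replicate number, 21 members became 24 with RLE scaling, 12 with library size scaling, 20 with no filter, 21 with limma-voom, 22 with a length correction that was added after seeing the data, and 13 to 23 without a library. Over all genes, 6302 of 14975 became 6385, 5588, 6846 (of 27582), 6427 and 6486 in that order, and 3984 to 6355 without a library. For single members, each value was set against the main fit, which in group comparisons had no block and called no member. A call made only with the block thus counts as kept when leaving out a library lost it. Such losses are given in the results above. Of 596 values under other settings, 426 kept their side of the threshold, 166 passed it newly, and 0 reversed a call. They come from 24 results, mostly of members that the blocked fit called. The sign changed in 21 of them, none of which was called before or after, and 4 of the 21 moved by more than the SE. Library size scaling with the block moved the median of all genes to 0.10 for shRNA-143 and 0.16 for shRNA-146. With 38 to 66 counts per library, UBE2V1 is the tested member that depth limits most.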
